A study of Mus musculus with 4 samples.

Results

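The kappa light chain variable segments were followed in mRNA sequencing of mouse LSK cells, the lineage-negative compartment marked by Sca-1 and c-Kit in which blood stem cells and the earliest progenitors are found. They were taken as every row of the deposited TPM table whose gene name begins with Igkv, which gave 162 of 46517 rows. The cells came from C57BL/6 mice aged 8 to 10 weeks of 2 genotypes, with 2 libraries of Setd2D/D, in which Setd2 is knocked out, and 2 libraries of Setd2f/f, in which Setd2 is wild type. Setd2 encodes the methyltransferase that trimethylates histone H3 at lysine 36, and the study's title concerns its part in the quiescence and differentiation of adult blood stem cells. How and in which cells the gene was deleted, and how many mice gave each library, is not stated by the labels. They do not say that replicates are separate animals either, so a p-value here speaks of library spread alone, and that spread may be technical.

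An antibody light chain is assembled in developing B cells, when the RAG recombinase joins a single V segment to a J segment near the constant exon Igkc. Kappa V segments lie on both strands: those on the strand of Igkc join by deletion of the DNA between, and those on the other strand by inversion. Because each B cell clone carries its own joined V segment, a V transcript in bulk RNA reports which segments the B lineage cells of a sample had rearranged, together with any transcription of unrearranged segments.

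All 162 rows matched the GENCODE M21 annotation of GRCm38, the build also called mm10. The annotation types 101 of them as V genes and 61 as V pseudogenes. They carry 158 names, since 4 names (Igkv4-56, Igkv4-73, Igkv12-47 and Igkv19-93) stand on 2 identifiers each, and the number after Igkv sorts them into 20 subfamilies. All lie on chromosome 6, from 22.3 to 3170 kb upstream of Igkc (chromosome 6, 70726435 to 70726966, plus strand), 76 on its strand and 86 on the other.

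The V exon holds the end of the leader and the framework and antigen-contacting parts of the V region. The V exons of 3 segments are shown because each was the highest kappa segment of at least 1 library: Igkv12-89 (chr6:68834846-68835143, minus strand) and Igkv6-20 (chr6:70335841-70336138, minus strand) in 1 Setd2D/D library each, and Igkv14-126 (chr6:67896345-67896642, plus strand) in both Setd2f/f libraries. Each is 298 nt long and written 5′ to 3′ on its own strand. Capitals mark the 26 nt from the conserved cysteine codon to the 3′ end, the germline start of the third complementarity-determining region.
Igkv12-89: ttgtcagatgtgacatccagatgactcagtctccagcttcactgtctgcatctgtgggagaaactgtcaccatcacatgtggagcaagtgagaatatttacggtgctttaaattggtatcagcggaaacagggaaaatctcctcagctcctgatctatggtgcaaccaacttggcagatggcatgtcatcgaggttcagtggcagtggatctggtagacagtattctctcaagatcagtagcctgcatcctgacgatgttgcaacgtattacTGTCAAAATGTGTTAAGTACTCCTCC
Igkv6-20: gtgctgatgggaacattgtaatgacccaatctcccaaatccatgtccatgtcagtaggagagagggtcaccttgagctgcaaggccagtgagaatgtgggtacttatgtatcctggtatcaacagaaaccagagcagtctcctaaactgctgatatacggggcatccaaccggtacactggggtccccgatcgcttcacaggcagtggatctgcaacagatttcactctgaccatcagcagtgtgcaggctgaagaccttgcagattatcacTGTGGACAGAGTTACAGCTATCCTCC
Igkv14-126: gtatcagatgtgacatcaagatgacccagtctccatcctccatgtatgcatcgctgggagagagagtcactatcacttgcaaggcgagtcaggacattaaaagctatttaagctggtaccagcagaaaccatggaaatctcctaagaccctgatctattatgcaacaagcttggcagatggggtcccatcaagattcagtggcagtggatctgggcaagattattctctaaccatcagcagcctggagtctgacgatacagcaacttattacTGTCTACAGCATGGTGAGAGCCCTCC

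The Igkv10 subfamily is shown because it holds the single segment that rose in Setd2D/D by limma, Igkv10-94 beside its 2 relatives. Its 3 V exons are Igkv10-94 (chr6:68704508-68704805, minus strand), Igkv10-95 (chr6:68680551-68680848, plus strand) and Igkv10-96 (chr6:68631963-68632260, minus strand). Capitals mark the bases that differ from Igkv10-96, of which Igkv10-94 has 16 (94.6% identity) and Igkv10-95 has 19 (93.6%). Igkv10-94 and Igkv10-95 differ from each other at 9 bases (97.0%).
Igkv10-94: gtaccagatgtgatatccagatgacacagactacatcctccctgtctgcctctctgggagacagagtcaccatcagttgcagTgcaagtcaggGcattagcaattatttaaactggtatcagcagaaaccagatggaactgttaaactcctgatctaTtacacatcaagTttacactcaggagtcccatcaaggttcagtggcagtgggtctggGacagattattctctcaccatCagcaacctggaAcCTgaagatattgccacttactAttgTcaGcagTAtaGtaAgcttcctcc
Igkv10-95: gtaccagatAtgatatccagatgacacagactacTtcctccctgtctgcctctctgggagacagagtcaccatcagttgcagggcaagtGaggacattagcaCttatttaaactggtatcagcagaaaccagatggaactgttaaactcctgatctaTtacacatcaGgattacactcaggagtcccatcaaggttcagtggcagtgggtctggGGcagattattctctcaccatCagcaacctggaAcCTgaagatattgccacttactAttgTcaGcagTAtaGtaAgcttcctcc
Igkv10-96: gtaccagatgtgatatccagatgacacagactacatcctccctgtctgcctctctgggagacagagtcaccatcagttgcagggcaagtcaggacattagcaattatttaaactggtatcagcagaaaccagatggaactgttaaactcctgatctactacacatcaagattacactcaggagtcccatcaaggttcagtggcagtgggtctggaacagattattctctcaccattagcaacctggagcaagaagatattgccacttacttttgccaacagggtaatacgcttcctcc

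Such likeness is common in the family. Of the 160 members with a transcript sequence, 62 had another member whose V exon was at least 95% identical, and among the members above 0 in any library the median identity to the closest relative was 94.8%. In those members a median of 75.5% of all 50-base words of the transcript occurred in no other member. The authors' counting could have split reads between close relatives, so values of single segments carry that limit, and the relative is given for some of those named.

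The libraries were deposited as TPM, the length-corrected share that a gene takes of all transcripts of a library, so read depth is unknown. Among genes with 300 to 400 nt of exon, the length of a V segment, the most frequent TPM above 0 was 0.260 and 0.150 in the Setd2D/D libraries and 0.190 and 0.120 in the Setd2f/f libraries. Single rows were also listed below that value. Genes above 0 numbered 17185 and 19448 in Setd2D/D and 19896 and 20192 in Setd2f/f. The same count at 1 TPM or more was 14360 and 14610 in Setd2D/D and 14428 and 14421 in Setd2f/f. Setd2 itself was at 43.4 and 49.5 TPM in Setd2D/D and 78.9 and 68.0 TPM in Setd2f/f (limma adjusted p = 0.329). The genes of both markers of the sort were present in all libraries. Kit had 301 and 285 TPM in Setd2D/D and 224 and 249 TPM in Setd2f/f, and Ly6a, which encodes Sca-1, had 46.5 and 80.6 TPM in Setd2D/D and 128 and 124 TPM in Setd2f/f.

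Markers of B lineage cells, which make kappa chains, were present in every library although the sort was lineage-negative. The summed TPM of 16 B lineage genes was 2140 and 1645 in Setd2D/D and 2848 and 1897 in Setd2f/f, and none of the 16 was at 0 in all libraries. Most of that sum was Ighm, the constant region of IgM, at 1776 and 1185 TPM in Setd2D/D and 1923 and 1326 TPM in Setd2f/f. The sum of 12 plasma cell genes was 613 and 655 TPM in Setd2D/D and 777 and 690 TPM in Setd2f/f. Most of it was Igha and Jchain, whose values are given below. Some of the list were low, such as Prdm1, at 0.23 and 1.73 TPM in Setd2D/D and 0.53 and 0.98 TPM in Setd2f/f. In these bulk samples fewer cells of a type and less RNA per cell cannot be told apart, and the part of these cells in the values of the segments was not tested.

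The total of kappa V transcripts did not separate the genotypes. Summed Igkv reached 2174 and 1619 TPM in Setd2D/D and 2008 and 1576 TPM in Setd2f/f. The means were 1897 ± 392 TPM in Setd2D/D and 1792 ± 305 TPM in Setd2f/f (SD, n = 2 each), a ratio of 1.06. The ranges overlapped, and the 2-sided exact permutation test over the 4 libraries gave p = 0.667. The smallest p that this exact permutation test allows, with 2 libraries in each group, is 0.333. The spread between replicates was wider than the difference between genotypes, and the direction of the total turned without either Setd2D/D replicate 1 or Setd2f/f replicate 2 (log2 ratios -0.15 and -0.08, against 0.08 with all libraries).

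Igkc, the single kappa constant exon that all joined V segments share, did not separate the genotypes either. It was at 2644 and 1777 TPM in Setd2D/D and 2746 and 1861 TPM in Setd2f/f, a log2 change of -0.06 (SE 0.27, limma adjusted p = 0.955). The summed V level per unit of Igkc level was 0.822 and 0.911 in Setd2D/D and 0.731 and 0.847 in Setd2f/f. The joining segments Igkj1 to Igkj5, each under 50 nt, were listed at 0 in all libraries.

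**Figure D1:**
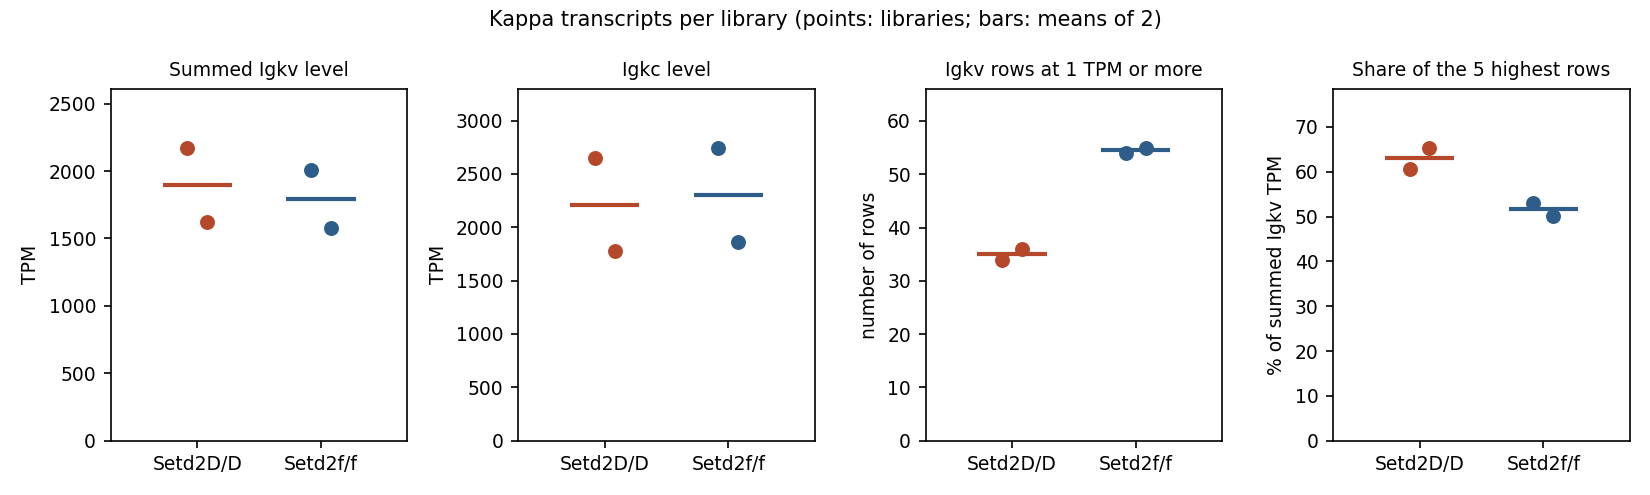
Summed Igkv TPM, Igkc TPM, the number of Igkv rows at 1 TPM or more and the percent of summed Igkv TPM in the 5 highest rows; points are libraries and bars are means of 2, with Setd2D/D left of Setd2f/f. The totals overlap (1619 to 2174 TPM in Setd2D/D, 1576 to 2008 TPM in Setd2f/f), whereas row numbers (34 and 36 against 54 and 55) and top shares (60.6% and 65.4% against 53.1% and 50.1%) do not.

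Fewer different segments made up that total in Setd2D/D. Rows above 0 numbered 36 and 38 in Setd2D/D and 56 and 62 in Setd2f/f. The mean was 37.0 ± 1.41 rows in Setd2D/D and 59.0 ± 4.24 rows in Setd2f/f (SD, n = 2 each). The groups did not overlap and the difference was -22.0 rows, with p = 0.333 in the exact permutation test, the smallest it can give. At 1 TPM or more, a level above that most frequent low value in each library, the numbers were 34 and 36 in Setd2D/D and 54 and 55 in Setd2f/f. Over all genes the mean number at that level was 14485 in Setd2D/D and 14424 in Setd2f/f. For the segments the ratio of Setd2D/D over Setd2f/f was 0.642. Genes matched to the segments in length and level were not counted, so the comparison does not show the part of detection.

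The gap lay in the low segments. Segments at 10 TPM or more numbered 30 and 28 in Setd2D/D and 32 and 34 in Setd2f/f, and those at 50 TPM or more numbered 9 and 7 in Setd2D/D and 8 and 7 in Setd2f/f. Segments above 0 but under 10 TPM numbered 6 and 10 in Setd2D/D and 24 and 28 in Setd2f/f. Together these low segments held 28.1 and 32.3 TPM in Setd2D/D and 109 and 108 TPM in Setd2f/f, a small part of either total. The most frequent low TPM differed between the libraries, as given above, and the part of depth in this difference was not tested.

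Over the 4 libraries, 85 segments were above 0 in at least 1 and 77 were at 0 in all. Of the 85, 31 were above 0 in exactly 1 library, 20 in 2, 15 in 3 and 19 in all 4. By genotype, 7 were seen in Setd2D/D libraries alone, 34 in Setd2f/f libraries alone and 44 in both. Only 1 of the 7 was above 0 in both Setd2D/D libraries, and 9 of the 34 in both Setd2f/f libraries. Genes at large above 0 were also fewer in Setd2D/D (17185 and 19448) than in Setd2f/f (19896 and 20192). The same split by genotype was not counted over all genes, so the 7 and 34 are not read as a result about the segments. V genes accounted for 81 of the 85, and the other 4 were pseudogenes, whose summed level was 0 and 1.29 TPM in Setd2D/D and 0.190 and 2.75 TPM in Setd2f/f.

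Replicates of a genotype shared only part of their segments. The 2 Setd2D/D libraries had 23 of 51 segments in common and the 2 Setd2f/f libraries 40 of 78. When each library was written as shares of its own Igkv total, the sum of the smaller shares was 33.5% between the Setd2D/D libraries and 64.8% between the Setd2f/f libraries. Pairs of 1 Setd2D/D and 1 Setd2f/f library gave 29.5% to 49.1%, so Setd2D/D replicate 2 shared more of its composition with either Setd2f/f library (49.1% and 45.4%) than with Setd2D/D replicate 1. As a description across segments, which share library and depth and are no replicates, Pearson's r of log2(TPM + 1) was 0.03 between the Setd2D/D libraries (n = 51 segments) and 0.47 between the Setd2f/f libraries (n = 78).

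A few segments held most of the level in each library, and more so in Setd2D/D. The 5 highest rows held 60.6% and 65.4% of summed Igkv TPM in Setd2D/D and 53.1% and 50.1% in Setd2f/f. The means were 63.0 ± 3.40% in Setd2D/D and 51.6 ± 2.05% in Setd2f/f (SD, n = 2 each), without overlap, and the exact permutation test gave its smallest p of 0.333. For the 10 highest rows the shares were 77.4% and 78.8% in Setd2D/D and 66.1% and 65.1% in Setd2f/f. The single highest row did not separate the genotypes, at 28.6% and 33.2% in Setd2D/D and 30.6% and 25.1% in Setd2f/f. The effective number of segments, 1 divided by the sum of squared shares, was 7.93 and 6.29 in Setd2D/D and 8.70 and 11.2 in Setd2f/f.

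Which segment was highest differed between the Setd2D/D libraries but not between the Setd2f/f libraries. Igkv12-89 had 621 TPM in Setd2D/D replicate 1 and 21.5 TPM in Setd2D/D replicate 2, against 35.7 and 22.7 TPM in Setd2f/f. Outside that 1 library its level was thus alike in all 3. Igkv6-20 had 538 TPM in Setd2D/D replicate 2 and was listed at 0 in Setd2D/D replicate 1, against 14.5 and 0 TPM in Setd2f/f. Its closest relative Igkv6-29, with a V exon 98.3% identical, was at 0.01 TPM in Setd2D/D replicate 2 and at 0 in the other 3 libraries.

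Igkv14-126 was among the first 3 segments of both Setd2D/D libraries and the first in both Setd2f/f libraries. It had 120 and 311 TPM in Setd2D/D and 615 and 396 TPM in Setd2f/f, without overlap. The means were 215 ± 135 TPM in Setd2D/D and 505 ± 155 TPM in Setd2f/f (SD, n = 2 each), a ratio of 0.426, and the log2 change of -1.35 (SE 0.49) did not pass limma's test (adjusted p = 0.436). Its closest relative, Igkv14-111, was only 90.9% identical and low in all libraries, at 18.3 and 9.47 TPM in Setd2D/D and 8.20 and 5.55 TPM in Setd2f/f.

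**Figure D2:**
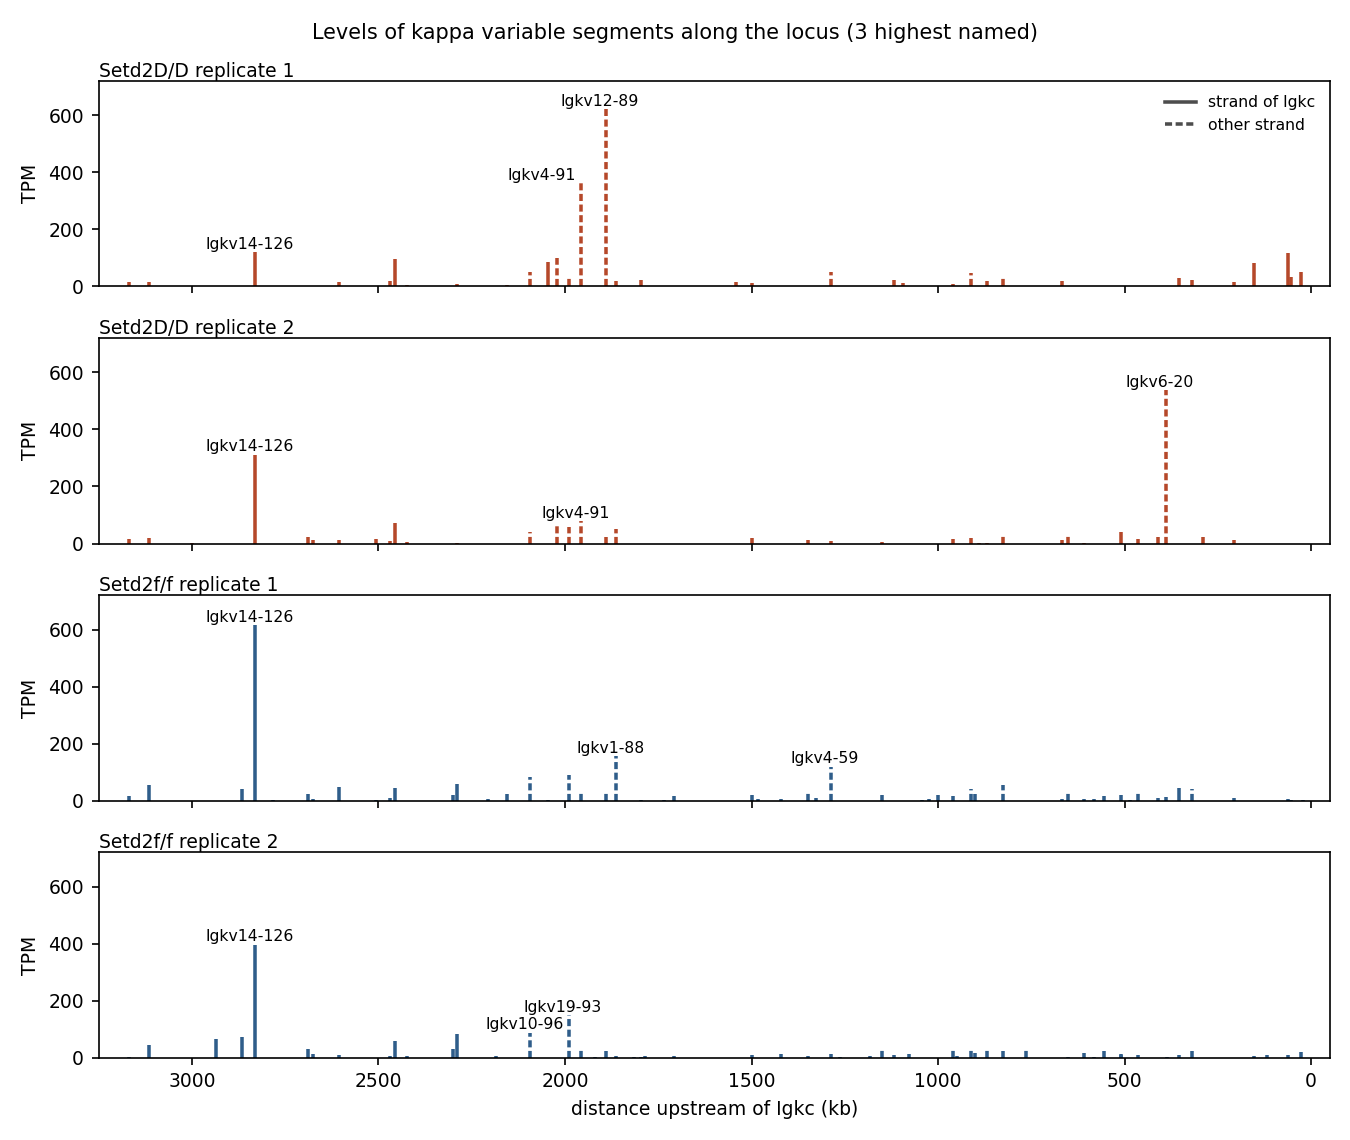
TPM of each segment against its distance upstream of Igkc in kb, 1 panel per library, with solid lines for segments on the strand of Igkc and dashed lines for the other strand; the 3 highest of each library are named. Igkv12-89 (621 TPM) leads Setd2D/D replicate 1 and Igkv6-20 (538 TPM) Setd2D/D replicate 2, while Igkv14-126 (615 and 396 TPM) leads both Setd2f/f libraries.

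By strand, the segments that join by deletion held a smaller share in Setd2D/D. Segments on the strand of Igkc made up 32.6% and 34.2% of summed Igkv TPM in Setd2D/D and 51.4% and 57.5% in Setd2f/f. The means were 33.4 ± 1.11% in Setd2D/D and 54.5 ± 4.31% in Setd2f/f (SD, n = 2 each), without overlap and with the smallest exact permutation p of 0.333. The counts of segments did not show that tilt: 16 and 14 were above 0 on the strand of Igkc in Setd2D/D and 22 and 24 in Setd2f/f, while 20 and 24 were above 0 on the other strand in Setd2D/D and 34 and 38 in Setd2f/f. The share follows a few rows, since Igkv12-89 and Igkv6-20 lie on the other strand and Igkv14-126 on that of Igkc. Position along the locus gave no such order, as the members within 1487 kb of Igkc, the median distance, held 25.4% and 48.9% in Setd2D/D and 30.1% and 26.8% in Setd2f/f.

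Single segments were tested with limma on log2(TPM + 1), with Benjamini-Hochberg adjustment over the 14755 genes at 1 TPM or more in at least 2 libraries. Only 51 members entered. Another 34 were above 0 somewhere but below that filter, and 77 were at 0 throughout. In the test 1 segment rose and 1 fell at an adjusted p of 0.05, which is 3.92% of the members tested, against 0.0678% of all genes tested (0.0203% higher and 0.0474% lower). At an unadjusted p below 0.05 there were 18, of which 3 were higher and 15 lower, against 11.2% of all genes tested (4.17% higher and 6.99% lower). The median log2 change of the 51 was -0.64, against -0.06 over all genes tested. A segment could pass the filter through the genotype where it was high, as both called segments did. Their libraries at 0 in the other genotype added no spread. The shares beside those of all genes are thus no test of the family. These counts and this median describe the rows tested and not all 162.

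Igkv10-94 (identifier ENSMUSG00000096490, chromosome 6, 68704508 to 68704978) was the segment that rose. It had 99.8 and 60.0 TPM in Setd2D/D, against 0 and 0 TPM in Setd2f/f. The difference in mean log2(TPM + 1) was 6.29 (SE 0.33, limma adjusted p = 0.0326), a size set in part by the pseudocount. No fold is given against libraries at 0. The Setd2f/f libraries at 0 added no spread to the SE and p-value, and Igkv10-94 met the filter through Setd2D/D alone. Igkv10-95, 97.0% identical to it, had 83.8 and 0 TPM in Setd2D/D and 1.33 and 0.70 TPM in Setd2f/f, so that the genotypes overlapped. Igkv10-96 went the other way, with 50.7 and 39.2 TPM in Setd2D/D and 84.8 and 87.5 TPM in Setd2f/f, a ratio of means of 0.522, short of the threshold (limma adjusted p = 0.254). Added up over the 3 relatives, a quantity that does not depend on how reads were split among them, Igkv10 had 234 and 99.2 TPM in Setd2D/D and 86.1 and 88.2 TPM in Setd2f/f.

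Igkv17-127 (identifier ENSMUSG00000076508, chromosome 6, 67861153 to 67861659) was the segment that fell. It was listed at 0 in both Setd2D/D libraries and had 40.9 and 72.4 TPM in Setd2f/f. The difference in mean log2(TPM + 1) was -5.79 (SE 0.37, limma adjusted p = 0.0416). Igkv17-127 met the filter through Setd2f/f alone, and its Setd2D/D libraries at 0 added no spread to the SE and p-value. Its relative Igkv17-121, 98.0% identical in the V exon, had 0 and 22.8 TPM in Setd2D/D and 21.7 and 29.6 TPM in Setd2f/f. The sum over the Igkv17 subfamily was 0 and 22.8 TPM in Setd2D/D and 62.6 and 102 TPM in Setd2f/f, without overlap. Both calls were lost with a pseudocount of 0.1, without the filter and when any 1 library was left out, and that of Igkv17-127 also without the abundance trend.

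A few segments were present in both libraries of 1 genotype and in neither library of the other. At 0 in both libraries of 1 genotype and at 10 TPM or more in both of the other were 1 segment seen in Setd2D/D (Igkv10-94) and 4 seen in Setd2f/f (Igkv17-127, Igkv16-104, Igkv8-27 and Igkv8-24). These were 1.18% and 4.71% of the members above 0 in any library, against 0.00837% and 0.0879% of all genes above 0 in any library. Igkv16-104, the lone Igkv16 member, was listed at 0 in both Setd2D/D libraries and had 19.9 and 29.3 TPM in Setd2f/f (limma adjusted p = 0.0575). Igkv8-27 was listed at 0 in both Setd2D/D libraries and had 16.1 and 23.6 TPM in Setd2f/f (limma adjusted p = 0.0801). Igkv8-24 was listed at 0 in both Setd2D/D libraries and had 21.3 and 11.1 TPM in Setd2f/f (limma adjusted p = 0.109). None of these 3 passed the adjusted threshold.

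Without regard to size, 6 segments were higher in both Setd2D/D libraries than in either Setd2f/f library and 18 were lower in both. That is 7.06% and 21.2% of the members above 0 in any library, against 13.4% and 22.0% of all genes above 0 in any library. The share of lower segments was therefore near that of genes at large. Among the segments above 0 in all 4 libraries, the 5 with the highest minimum were Igkv14-126, Igkv1-110, Igkv10-96, Igkv19-93 and Igkv4-91. Igkv1-110 had 96.9 and 73.4 TPM in Setd2D/D and 45.9 and 60.3 TPM in Setd2f/f, a ratio of means of 1.60 (limma adjusted p = 0.408). Igkv19-93 had 33.9 and 56.7 TPM in Setd2D/D and 90.0 and 150 TPM in Setd2f/f, a ratio of means of 0.378 (limma adjusted p = 0.346). Neither pair of groups overlapped, and neither segment passed the test.

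Igkv4-91 and Igkv15-103 had the largest log2 changes among the named segments present in all 4 libraries with groups apart. Igkv4-91 had 362 and 77.9 TPM in Setd2D/D and 28.7 and 26.5 TPM in Setd2f/f, a ratio of means of 7.97 and a log2 change of 2.57 (SE 0.72, limma adjusted p = 0.390). Its 2 Setd2D/D libraries differed from each other by more than the lower of them differed from Setd2f/f. Igkv15-103 had 9.42 and 2.72 TPM in Setd2D/D and 56.8 and 84.7 TPM in Setd2f/f, a ratio of means of 0.0858 and a log2 change of -3.50 (SE 0.54, limma adjusted p = 0.215). With no relative closer than 78.6%, all of its 50-base words were its own.

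**Figure D3:**
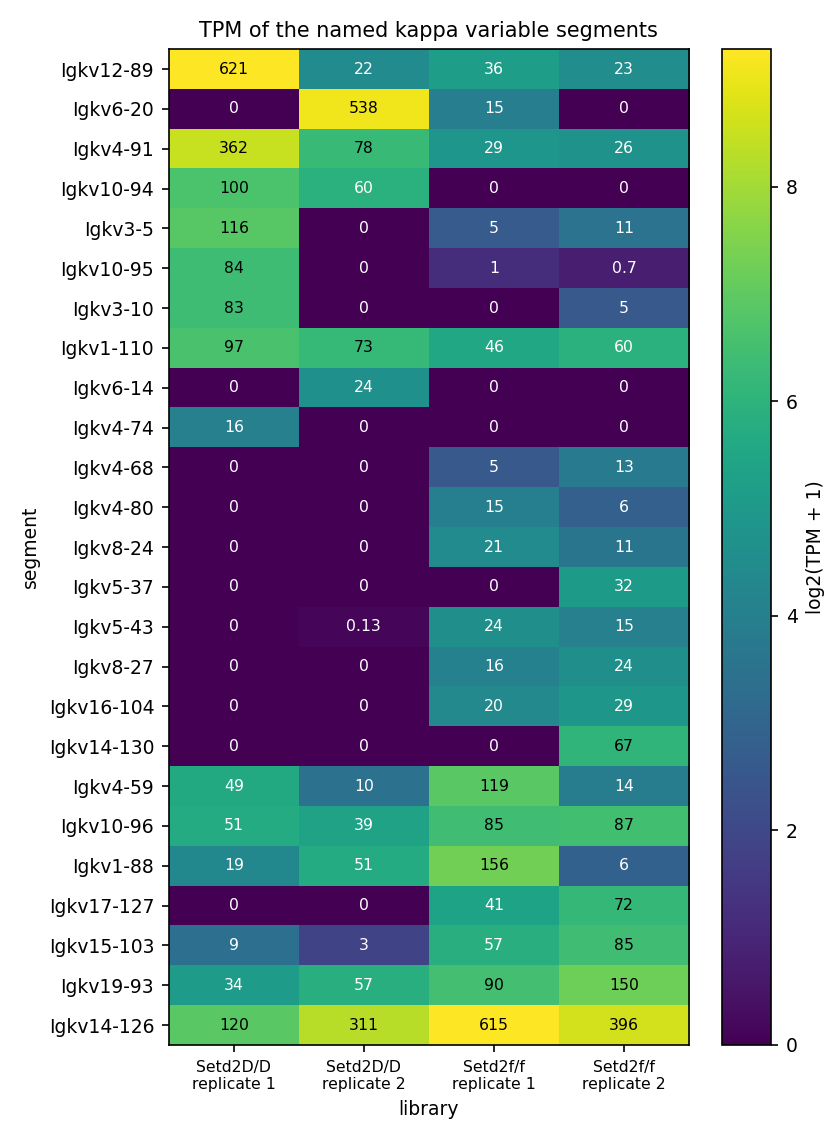
TPM (numbers) and log2(TPM + 1) (colour) of the 25 named segments in each library, Setd2D/D columns left of Setd2f/f, ordered by mean TPM in Setd2D/D minus mean TPM in Setd2f/f. High values in 1 Setd2D/D library alone stand at the top (621 TPM for Igkv12-89, 538 TPM for Igkv6-20), and Igkv10-94 (100 and 60 TPM against 0 and 0) and Igkv17-127 (0 and 0 against 41 and 72 TPM) are present in 1 genotype alone.

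The authors' deposited table of the comparison lists the 85 members above 0 and calls more of them. At an FDR of 0.05 it had 22 members, 9 higher and 13 lower in Setd2D/D, which is 25.9% of the members listed, against 3.15% of all genes in the authors' deposited table (1.51% higher and 1.64% lower). In 12 of the 22 the TPM of the genotypes did not overlap (2 higher and 10 lower), and in 10 they did. For 10 of the 22 the replicates of the higher genotype were more than 5 times apart or 1 of them was listed at 0. The smallest FDR in the authors' deposited table belonged to Igkv6-20 (8.89e-86), which had 0 and 538 TPM in Setd2D/D and 14.5 and 0 TPM in Setd2f/f and a limma adjusted p of 0.802. Next among the Igkv members of the authors' deposited table came Igkv12-89 (FDR 4.78e-51), with 1 high Setd2D/D library and a limma adjusted p of 0.662.

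Other segments of the authors' deposited table with an FDR below 0.05 and a single high library were Igkv3-5, Igkv3-10 and Igkv10-95, each high in Setd2D/D replicate 1. Igkv3-5 had 116 and 0 TPM in Setd2D/D and 5.42 and 10.7 TPM in Setd2f/f, and Igkv3-10, 98.1% identical to it, had 83.4 and 0 TPM in Setd2D/D and 0 and 5.02 TPM in Setd2f/f. Also with an FDR below 0.05 in the authors' deposited table, Igkv14-130 and Igkv5-37 were seen in Setd2f/f replicate 2 alone, at 67.0 and 32.3 TPM. The authors' deposited table further called Igkv6-14, seen in Setd2D/D replicate 2 alone (24.0 TPM), and Igkv4-74, seen in Setd2D/D replicate 1 alone (15.6 TPM). Lower in both Setd2D/D libraries, with an FDR below 0.05 in the authors' deposited table, was Igkv5-43, at 0 and 0.13 TPM in Setd2D/D and 23.6 and 15.4 TPM in Setd2f/f (limma adjusted p = 0.0859). Its relative Igkv5-45, 99.0% identical, had 6.24 TPM in Setd2f/f replicate 2 and was at 0 elsewhere. Igkv4-68 and Igkv4-80 were likewise listed at 0 in both Setd2D/D libraries, against 5.05 and 13.0 TPM for Igkv4-68 and 15.2 and 6.24 TPM for Igkv4-80 in Setd2f/f.

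Igkv1-110, Igkv10-96, Igkv1-88 and Igkv4-59, each among the 5 highest rows of some library, were called neither by limma nor in the authors' deposited table. Igkv1-88 had 19.1 and 51.0 TPM in Setd2D/D and 156 and 6.45 TPM in Setd2f/f. Igkv4-59 had 49.3 and 10.3 TPM in Setd2D/D and 119 and 13.9 TPM in Setd2f/f. In the last 2 segments the replicates of Setd2f/f stood farther apart than the genotype means.

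Subfamily sums, which are less open to the split of reads among relatives, separated the genotypes for 10 of 20 subfamilies. Igkv2, Igkv7 and Igkv10 were higher in both Setd2D/D libraries. Igkv5, Igkv8, Igkv14, Igkv15, Igkv16, Igkv17 and Igkv19 were lower in both. Igkv2 was apart only narrowly, with 19.9 and 35.5 TPM in Setd2D/D and 19.2 and 10.1 TPM in Setd2f/f. Igkv7 had 18.6 and 13.9 TPM in Setd2D/D and 7.35 and 0 TPM in Setd2f/f. Of the other 10, Igkv11 and Igkv20 were at 0 in all libraries. Among the separated, Igkv7 and Igkv16 have 1 member each, and Igkv15 and Igkv19 had 1 member above 0 each. Their sums are thus single rows. Each separated sum has an exact permutation p of 0.333, the smallest possible, and single genes above 0 in any library were separated in 13.4% (higher) and 22.0% (lower) of cases.

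Igkv14 held 6.35% and 19.8% of the total in Setd2D/D and 31.3% and 29.7% in Setd2f/f, where its mean was the highest of the 20 subfamilies. Its sum was 138 and 320 TPM in Setd2D/D and 628 and 469 TPM in Setd2f/f, and most of it was Igkv14-126. Igkv5 had 27.8 and 25.6 TPM in Setd2D/D and 100 and 79.2 TPM in Setd2f/f, with 5 of its 6 members above 0 in some library. Igkv8, with 8 of 13 members above 0 in some library, had 0 and 26.6 TPM in Setd2D/D and 59.5 and 55.4 TPM in Setd2f/f. In these 3 subfamilies the lower Setd2f/f library was above the higher Setd2D/D library, and the Igkv5 replicates lay close together in each genotype.

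The subfamilies with the highest means in Setd2D/D did not separate. Igkv12 had 723 and 61.7 TPM in Setd2D/D and 119 and 106 TPM in Setd2f/f, and Igkv6 had 53.2 and 647 TPM in Setd2D/D and 159 and 60.4 TPM in Setd2f/f. Each was high in the 1 library led by its own top segment. Igkv4, the largest subfamily with 33 members, of which 21 were above 0 in some library, had 473 and 123 TPM in Setd2D/D and 265 and 145 TPM in Setd2f/f. Igkv13, with 18 members, had a single member above 0, Igkv13-84, at 5.23 TPM in Setd2f/f replicate 2.

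**Figure D4:**
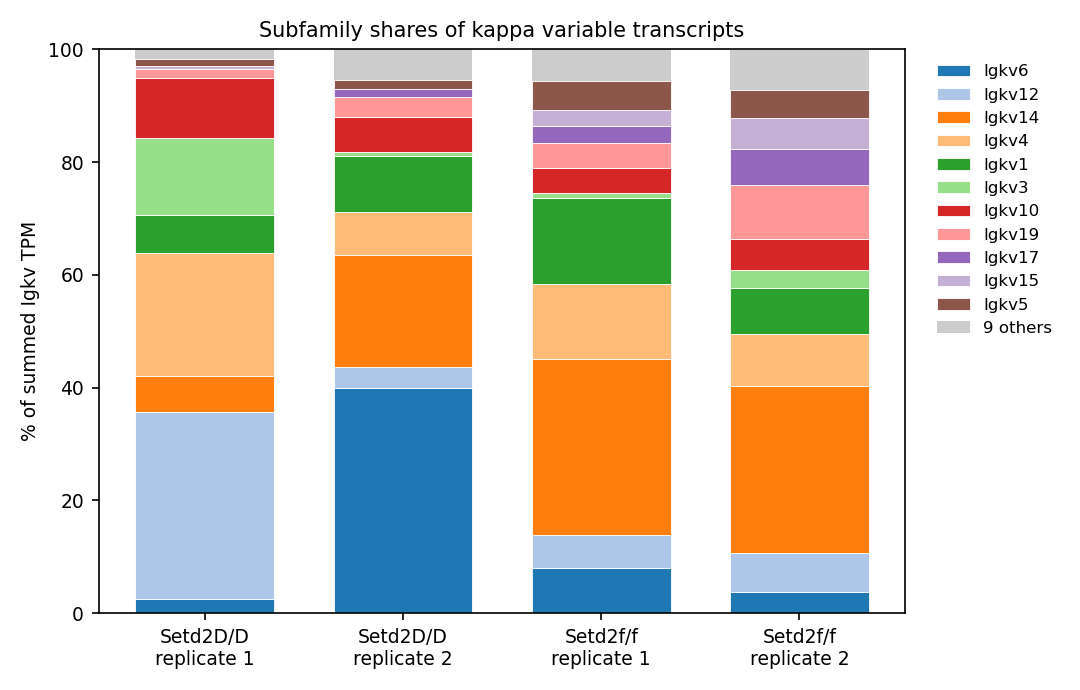
Percent of summed Igkv TPM held by each subfamily in each library, Setd2D/D bars left of Setd2f/f, with the 9 subfamilies that stayed under 5% in every library pooled as others. Igkv12 fills 33.2% of Setd2D/D replicate 1 and Igkv6 fills 39.9% of Setd2D/D replicate 2, whereas both Setd2f/f bars carry Igkv14 as the largest part, at 31.3% and 29.7%.

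Genes that act in kappa rearrangement were counted from lists. Of 10 recombination genes 0 passed limma's adjusted test and 1 had an unadjusted p below 0.05, near the 11.2% of all genes tested. By TPM 4 of the 10 were lower in both Setd2D/D libraries and 1 was higher in both. Of all genes above 0 in any library, those shares were 22.0% and 13.4%. The authors' deposited table had 0 of the 10 higher and 1 lower, Dntt, against 3.15% of all its genes. Dntt, the polymerase that adds bases at V-J and V-D-J joints, was at 427 and 408 TPM in Setd2D/D and 668 and 594 TPM in Setd2f/f (limma adjusted p = 0.242). Rag1, a subunit of the recombinase, was at 12.9 and 13.5 TPM in Setd2D/D and 23.4 and 9.73 TPM in Setd2f/f, and the groups overlapped. Rag2, its partner subunit, was at 19.5 and 18.3 TPM in Setd2D/D and 27.3 and 18.1 TPM in Setd2f/f, also with overlap. Of 15 transcription factors that act on the kappa locus or in early B cells 0 passed limma and 0 had an unadjusted p below 0.05, against 11.2% of all genes tested. By TPM 6 of the 15 were lower in both Setd2D/D libraries and 1 was higher in both, beside the same 22.0% and 13.4%. The authors' deposited table had 0 of the 15 higher and 2 lower, Pax5 and Pou2af1, against 1.51% and 1.64% of all its genes. Pax5, which holds cells to the B lineage, had 18.8 and 14.8 TPM in Setd2D/D and 17.4 and 9.33 TPM in Setd2f/f, and its mean TPM was thus higher in Setd2D/D, against the sign in the authors' deposited table. Ebf1, which acts before Pax5, had 4.20 and 7.14 TPM in Setd2D/D and 14.7 and 8.20 TPM in Setd2f/f.

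B lineage genes other than the light chain stood as follows. Of the 16, 15 were tested with limma, 0 passed the adjusted test and 6 had an unadjusted p below 0.05, against 11.2% of all genes tested. The authors' deposited table had 0 of the 16 higher and 9 lower, against 1.51% and 1.64% of all its genes. By TPM 8 of the 16 were lower in both Setd2D/D libraries and 3 were higher in both, namely Bank1, Cd22 and Fcer2a. Of all genes above 0 in any library, 22.0% were lower and 13.4% higher in that way. Bank1 had 8.84 and 5.53 TPM in Setd2D/D and 3.25 and 1.94 TPM in Setd2f/f, and was the 1 of the 6 that was higher (limma adjusted p = 0.416). Cd22 had 1.78 and 9.06 TPM in Setd2D/D and 1.40 and 1.37 TPM in Setd2f/f, and Fcer2a was under 1 TPM in all libraries. Cd79a, which carries the signal of the B cell receptor, had 34.1 and 40.8 TPM in Setd2D/D and 110 and 56.3 TPM in Setd2f/f (limma adjusted p = 0.412). Vpreb1, part of the surrogate light chain that precedes kappa in precursor B cells, had 17.6 and 37.4 TPM in Setd2D/D and 107 and 58.8 TPM in Setd2f/f (limma adjusted p = 0.393). Igll1, the other chain of that complex, had 56.5 and 78.7 TPM in Setd2D/D and 145 and 67.7 TPM in Setd2f/f, and these overlapped. Cd79b, the partner of Cd79a, had 28.5 and 48.4 TPM in Setd2D/D and 72.3 and 59.3 TPM in Setd2f/f. The groups did not overlap for Cd79b, which did not pass limma's adjusted test. Jchain, which joins secreted IgM and IgA, had 195 and 157 TPM in Setd2D/D and 256 and 175 TPM in Setd2f/f, with overlap. Among the 12 plasma cell genes 10 were tested, with a median log2 change of -0.16. Igha, the constant region of IgA, had 281 and 327 TPM in Setd2D/D and 287 and 324 TPM in Setd2f/f, with overlap. Of those tested 1 fell, against 0.0474% lower of all genes tested. It was Ighg1, the constant region of IgG1, at 0 and 0.03 TPM in Setd2D/D and 21.5 and 21.9 TPM in Setd2f/f (limma adjusted p = 0.0476). Ighg1 met the filter through Setd2f/f alone, and its call rests on Setd2D/D values near 0 with almost no spread. Over all genes 0 passed limma without the filter or with any 1 library left out, so that call was lost there too. The part of these cells in the number of segments above 0 was not tested.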

How the data were processed

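The authors deposited a TPM table (46517 genes, 4 libraries) and a comparison table (23955 genes). Per the file headers, the deposited comparison holds the fold change both as a linear ratio and as log2, the mean log2 CPM, the F score, the p-value and the FDR, a q-value. Per the submitters' processing notes, the build was mm10 and the tools included edgeR, RSEM and cutadapt; no version or role is stated, nor whether libraries keep strand. Fields displaced by commas within names were restored in 5 rows of the first table and 2 rows of the second. The deposited log2 fold change and FDR are printed as the authors' values.

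Log2(TPM + 1) was fitted with limma 3.58.1 in R 4.3.3 (filter of TPM 1 reached by 2 or more libraries, a genotype term, variances with an abundance trend, 2-sided, Benjamini-Hochberg, threshold 0.05). The fit was tested on simulated data. Counts, sums and shares per library were compared with exact permutation tests. Coordinates, gene types and transcripts came from GENCODE M21 (46005 of 46517 identifiers matched); V exon identity used edlib 1.3.9. Figures used matplotlib 3.10.9. The promoter octamer and the recombination heptamer were not searched.

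Named segments held 1 of the 5 highest values of a library, passed limma or the authors' FDR of 0.05 (the 12 smallest p in a direction), were at 0 in both libraries of 1 genotype and at 10 TPM or more in the other, or had the 5 highest minima. Igkv6-29, Igkv5-45, Igkv17-121, Igkv14-111 and Igkv13-84 were named as relatives or single members after their values were seen. Some genes of the lists are not reported here. The segments, lists and tests were chosen with earlier results of these data known. Alternatives were pseudocounts, filters, scalings, moderation, a replicate block, other row sets and cut-offs, and each library left out.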

Additional observations from a re-analysis of the deposited data

How the results depend on the processing

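The count of 2 segments past the threshold (limma, adjusted p of 0.05) stayed at 2 with a pseudocount of 0.5, a filter at TPM 5 and 3 other scalings. It was 3 with robust moderation. Without the abundance trend it was 2, but Igkv17-127 was out (adjusted p = 0.0563) and Igkv16-104 was in (adjusted p = 0.0495). It was 0 with a pseudocount of 0.1 (17 segments at an unadjusted p below 0.05), without the filter (16) and with the replicate block (25), and 0 to 0 when each library was left out in turn (16 to 31), a fit that assumes the lone library to vary like the others. Over all genes the count was 10 as reported, 3 with a pseudocount of 0.1, 0 without the filter, 0 with the replicate block, 19 without the trend and 0 without any 1 library. A fit with fewer libraries or more terms has fewer degrees of freedom. The part of that in the shifts, or any other cause of them, was not tested. The labels do not say that replicate numbers pair the libraries, and the deviations of same-numbered libraries correlated at 0.04.

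The log2 ratio of the Igkv total was 0.08 and ran from -0.15 (without Setd2D/D replicate 1) to 0.28 (without Setd2D/D replicate 2), and was -0.08 without Setd2f/f replicate 2. The difference in segments above 0 was -22.0, from -25.0 to -19.0 with a library left out, -19.5 at 1 TPM or more, -13.0 at 5 TPM or more and -4.00 at 10 TPM or more, the last chosen after seeing the data. The difference in the share of the 5 highest rows was 11.4 percentage points, from 9.04 to 13.8 with a library left out, 3.01 for the highest row, 12.5 for the 10 highest and 14.6 without the highest row of each library, an alternative also chosen after seeing the data. Subfamilies apart numbered 10, from 11 to 15 with a library left out and 11 with the replicate block. Both settings can only keep or raise that number, so they do not test it. The replicate block changed no direction of the total, the number of segments above 0 or the share of the 5 highest rows.

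Of 293 alternatives for the 21 named segments with a fit, 264 kept direction and side of the threshold, 15 lost the call, 2 gained it and 12 turned direction, in 7 segments. With each library left out in turn, the log2 change ran from -0.99 to 5.41 for Igkv10-95, from -0.39 to 4.40 for Igkv12-89, from -2.28 to 2.12 for Igkv1-88, from -2.34 to 0.68 for Igkv4-59, from -1.98 to 7.10 for Igkv6-20, from -1.29 to 5.10 for Igkv3-10 and from -3.12 to 3.75 for Igkv3-5. Igkv3-5 also turned with pseudocounts of 0.1 (-1.18) and 0.5 (-0.10), against 0.32 as reported. TPM carries no depth, so whether a low segment at 0 was absent or under the level of detection is not known.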

Other observations

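The other immunoglobulin variable segments in the same libraries gave these values. Heavy chain rows whose names begin with Ighv, 185 in all, were above 0 in 45 and 49 cases in Setd2D/D and in 79 and 99 in Setd2f/f, with a difference of -42.0 and an exact permutation p of 0.333, the smallest possible. Their summed level was 1317 and 1084 TPM in Setd2D/D and 1373 and 1222 TPM in Setd2f/f, with overlap. The 5 highest Ighv rows held 55.5% and 55.4% of it in Setd2D/D and 48.3% and 35.6% in Setd2f/f. Lambda rows whose names begin with Iglv numbered 3, with 81.5 and 46.5 TPM summed in Setd2D/D and 41.8 and 81.9 TPM in Setd2f/f. Of these, Iglv1 had 81.5 and 7.71 TPM in Setd2D/D and 19.8 and 47.4 TPM in Setd2f/f. The lambda constant regions Iglc1 and Iglc2 had 13.2 and 25.7 TPM (Iglc1) and 13.7 and 17.4 TPM (Iglc2) in Setd2D/D, and 4.91 and 64.3 TPM (Iglc1) and 25.5 and 32.7 TPM (Iglc2) in Setd2f/f. Iglc3, a further one, had 73.5 and 5.03 TPM in Setd2D/D and 25.4 and 11.97 TPM in Setd2f/f.

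Sums of the marker lists of further cell types were as follows. The sum of 5 erythroid genes was 244 and 249 TPM in Setd2D/D and 54.4 and 34.6 TPM in Setd2f/f. For 8 T and NK cell genes it was 38.8 and 31.2 TPM in Setd2D/D and 71.0 and 59.4 TPM in Setd2f/f. Most of this T and NK sum was Lck, at 37.6 and 25.0 TPM in Setd2D/D and 52.7 and 53.0 TPM in Setd2f/f. Only 3 of the 8 genes were high enough to be tested with limma. The sum of 5 mature neutrophil genes was 425 and 1150 TPM in Setd2D/D and 849 and 1029 TPM in Setd2f/f, with overlap. Their part in the segments' values was not tested.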
